A study of Homo sapiens with 2 samples.

Results

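Cholesterol and fatty acid synthesis was followed through 31 genes of LNCaP, a human prostate cancer cell line that grows in response to androgen. The genes were taken from a list of pathway members chosen by name, and all 31 were found among the 12075 protein-coding genes of the deposited expression table. They fall into 4 groups by role, with 7 genes of the early mevalonate steps, 11 of the late sterol steps, 4 regulators of the SREBP transcription factors and 9 genes of fatty acid synthesis and remodelling. The list does not hold every enzyme of these pathways, and further enzymes are described from related lists after the members.

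There were 2 RNA-seq libraries, both of LNCaP cells labelled WT and Day 0, and 1 library stood for each group. Cells of the nc library had received CM from nc-YY1 M2 macrophages. Those of the oe library had received CM from oe-YY1 M2 macrophages. The treatment labels add the word cocultured, and nc, oe and CM are not spelled out in the labels. Both libraries also carry a protocol text on insulin-induced adipogenic differentiation, a process that would bear on lipid synthesis. Whether it was applied to these LNCaP cells cannot be told from the labels. Of 8 adipocyte markers, CFD alone was measured, with 4.91 FPKM (nc) and 1.13 FPKM (oe). With 1 library per group there is no replicate check and no p-value for any difference below.

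Values are FPKM, in which fragment numbers are divided by transcript length and by library size, so levels of different genes can be compared. Log2 ratios compare oe with nc on the scale of log2(FPKM + 1), negative where oe is lower, which compresses the differences of genes with low values. A gene was tested if it reached 1 FPKM in the higher library, which held for 11126 genes and for all 31 members, and 30 members reached 1 FPKM in both libraries. The number of reads behind the values is unknown. Over all genes tested the median log2 ratio was -0.01. The 11 luminal prostate markers were present in both libraries, summing to 1157 FPKM (nc) and 675 FPKM (oe). Where a pair of values follows a gene, the first is nc and the second oe. Of the 11, 9 had a log2 ratio below 0, KLK2 the lowest at -2.78, and 2 lay above 0, STEAP2 (3.39 and 17.9 FPKM, 2.11) and CDH1 (75.4 and 119 FPKM, 0.65). Of 19 macrophage and leukocyte markers 5 were listed, none of them reached 1 FPKM in the nc library, and they summed to 1.73 FPKM there and 958 FPKM in the oe library, where HLA-DRA held 700.01 FPKM and CD74 251 FPKM. The other 3, CD68, ITGAM and LYZ, stood between 0.603 and 4.18 FPKM in the oe library. The sum there was thus almost wholly HLA-DRA and CD74. Whether this RNA came from macrophages or from LNCaP cells was not tested. Every gene listed held at least 0.50 FPKM in its higher library. In the nc library CD74 stood at 0.0924 FPKM, LYZ at 0.0382 FPKM and ITGAM at 0.00787 FPKM. These genes thus entered by their oe level and had to be higher. Markers that were not listed have no value here. The part of these shifts in the lipid gene values was not tested.

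Cells build cholesterol from acetyl-CoA through mevalonate, isoprenoid units, squalene and lanosterol, and fatty acids from the same acetyl-CoA through malonyl-CoA. Both routes are controlled by SREBP transcription factors, which are held in the endoplasmic reticulum by INSIG proteins when sterols are plentiful and are escorted to the Golgi by SCAP and activated there when sterols are scarce. Prostate cancer cells are known for high lipid synthesis, and androgen is known to raise several of these enzymes in LNCaP.

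Across the 31 genes, the elongases, the desaturases of polyunsaturated fatty acids and a few sterol enzymes were lower in the oe library. On the FPKM + 1 scale 14 of the 18 sterol enzymes and all 4 SREBP regulators stayed within 1.5-fold. So did most genes, 7735 of the 11126 tested. Bulk RNA cannot tell fewer cells of a kind from less RNA per cell. In the oe library 4 of the 31 genes were lower by 2-fold or more, which is 12.9% of them, against a background of 5.83% of all genes tested. None was at least 2-fold higher, against a background of 6.46%. These 4 were EBP, FADS2, PMVK and TM7SF2. The 6.46% includes genes that passed the filter only by their oe level. With at least 1 FPKM in both libraries, 4 of 30 members (13.3%) were lower by 2-fold, against 5.20% of 10080 genes. In that setting 0 members were higher by 2-fold, against 4.54%. When both libraries were scaled to one 75th percentile, PMVK and TM7SF2 fell short of 2-fold and the share of members was 6.45%, close to the 5.31% of all genes under that scaling. At the smaller size of 1.5-fold, 9 genes were lower (29.03%, background 15.2%) and 0 were higher (background 15.3%). Under the scalings tried, 8 or 9 were lower by 1.5-fold (25.8% or 29.03%) and 0 were higher. Of all genes tested, 12.0% to 14.7% were then lower and 15.7% to 19.1% higher by that size. The log2 ratio was below 0 for 24 of the 31 genes and above 0 for 7, with a median of -0.36, and over all 11126 genes tested it was below 0 for 5649 and above 0 for 5477. The authors' deposited table of lower genes, which holds genes past 1.5-fold, lists the same 9 genes, and their table of higher genes lists none of the 31. The log2 fold changes in these tables are the same as the log2 ratios used here, so this match was fixed in advance. The p-values and q-values of these tables are all 1.

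**Figure D1:**
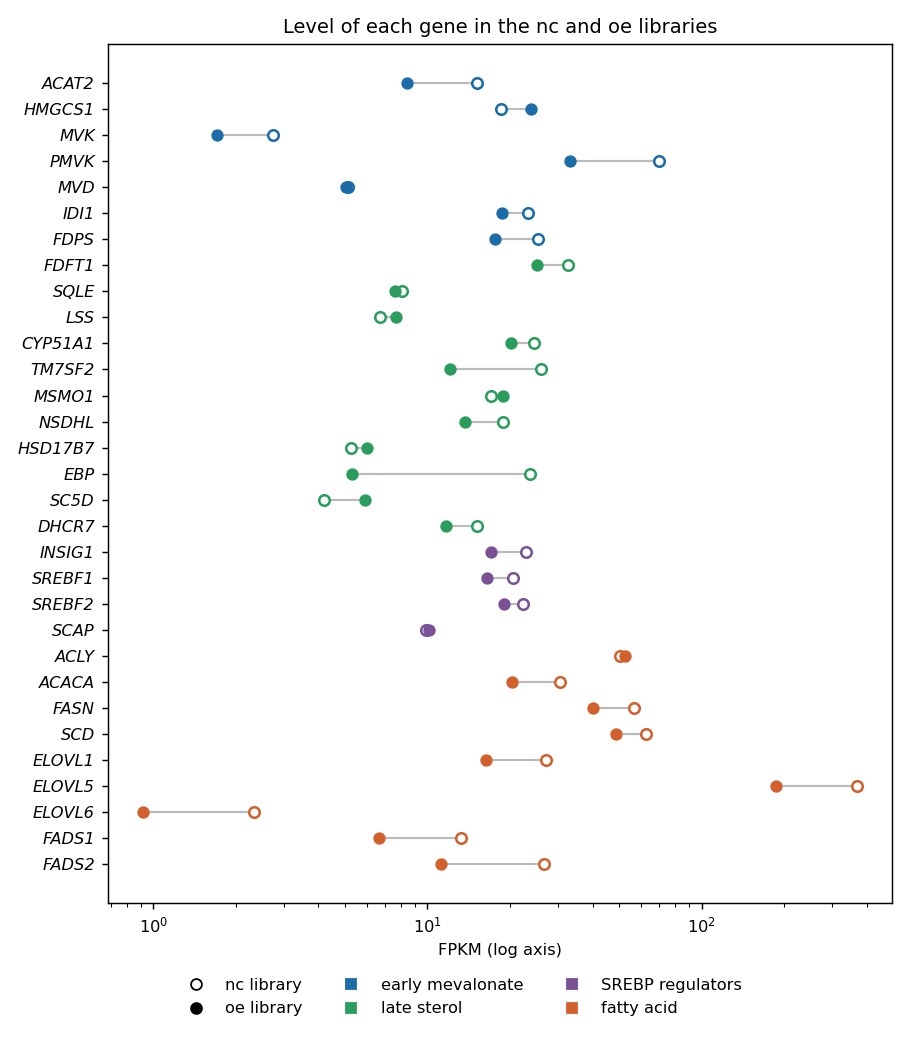
Level of each of the 31 genes in FPKM on a log axis, with the nc library as open circles, the oe library as filled circles and colours for the 4 groups. ELOVL5 lies to the right of all others at 368 and 187 FPKM, and the longest line between circles belongs to EBP.

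The early mevalonate genes turn acetyl-CoA into the isoprenoid farnesyl diphosphate, and they did not move as a block. PMVK, phosphomevalonate kinase (ENSG00000163344.5_2, chromosome 1, 154897210 to 154909467 in the deposited coordinates, build GRCh37 by inference from the identifiers), stood at 70.1 FPKM (nc) and 33.1 FPKM (oe), a log2 ratio of -1.06. It was the second most abundant of the 31 genes in the nc library. MVK, the kinase that acts just before it, stood at 2.73 and 1.70 FPKM (log2 ratio -0.47). Its oe level in FPKM was 62.3% of its nc level, past 1.5-fold, while on the FPKM + 1 scale it was within 1.5-fold. PMVK exceeded MVK 25.7 times in the nc library and 19.4 times in the oe library. ACAT2, the cytosolic thiolase that opens the pathway, stood at 15.2 and 8.41 FPKM (-0.78). HMGCS1, the HMG-CoA synthase of the following step and a well-known SREBP target, lay on the other side, at 18.6 and 23.9 FPKM (0.35).

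Further along the early steps the differences were smaller. MVD, the decarboxylase that makes isopentenyl diphosphate, stood at 5.13 and 5.04 FPKM (log2 ratio -0.02). IDI1, the isomerase of isopentenyl diphosphate, stood at 23.3 and 18.8 FPKM (-0.30), and FDPS, farnesyl diphosphate synthase, at 25.3 and 17.7 FPKM (-0.49). Over the 7 early genes the median log2 ratio was -0.47, and 6 were below 0. ACAT2 overlaps SOD2 and TCP1 on the opposite strand in the deposited coordinates, and MVK overlaps MMAB on the opposite strand. The labels name a stranded library kit without saying whether counting used strand, so these values are uncertain, and the part of shared reads in them was not tested. SOD2 stood at 0.805 and 18.5 FPKM, the opposite direction to ACAT2.

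The late sterol genes turn farnesyl diphosphate into squalene, lanosterol and cholesterol, and a single gene stood far from the rest. EBP, the isomerase that shifts the double bond of the sterol ring from position 8 (ENSG00000147155.10_3, chromosome X, 48379546 to 48387104), stood at 23.6 FPKM (nc) and 5.31 FPKM (oe). Its log2 ratio was -1.96, and its oe level was 22.5% of its nc level. Among the 11126 genes tested, 140 had a lower log2 ratio. EBP was the gene furthest below 0 among the 31, and its rank by level within them went from 13 in the nc library to 28 in the oe library. SC5D, the desaturase that acts directly after it, stood at 4.20 and 5.91 FPKM (0.41), the highest log2 ratio of the 31. EBP thus exceeded SC5D 5.62 times in the nc library, while in the oe library it stood at 0.899 of the SC5D level. DHCR7, the reductase that completes cholesterol on one branch, stood at 15.1 and 11.7 FPKM (-0.34).

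The squalene and lanosterol enzymes before EBP differed little. FDFT1, squalene synthase, stood at 32.4 and 25.1 FPKM (log2 ratio -0.36), and SQLE, the squalene epoxidase that is a rate-limiting step of the late pathway, at 8.05 and 7.59 FPKM (-0.07). LSS, lanosterol synthase, stood at 6.69 and 7.68 FPKM (0.17). Its locus overlaps AP001468.1, at 0.0734 and 1.204 FPKM, over 1283 bases on the same strand, and the part of shared reads in the LSS value was not tested. The levels of these enzymes differed in both directions and by less than 1.5-fold. CYP51A1, the demethylase that acts on lanosterol, stood at 24.6 and 20.1 FPKM (-0.28).

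TM7SF2, a sterol C14 reductase (ENSG00000149809.14_3, chromosome 11, 64879317 to 64883856), stood at 26.04 and 12.1 FPKM, a log2 ratio of -1.05. LBR, the nuclear envelope protein that carries the same reductase activity, stood at 10.4 and 6.05 FPKM (-0.70), so both genes for this step were lower in the oe library. The C4 demethylation enzymes that follow were mixed. MSMO1, the sterol C4 methyl oxidase, stood at 17.1 and 18.8 FPKM (0.13), NSDHL, the decarboxylating dehydrogenase, at 18.9 and 13.7 FPKM (-0.44), and HSD17B7, the ketoreductase, at 5.25 and 6.0 FPKM (0.16). Over the 11 late genes the median log2 ratio was -0.28, with 7 below 0 and 4 above.

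**Figure D2:**
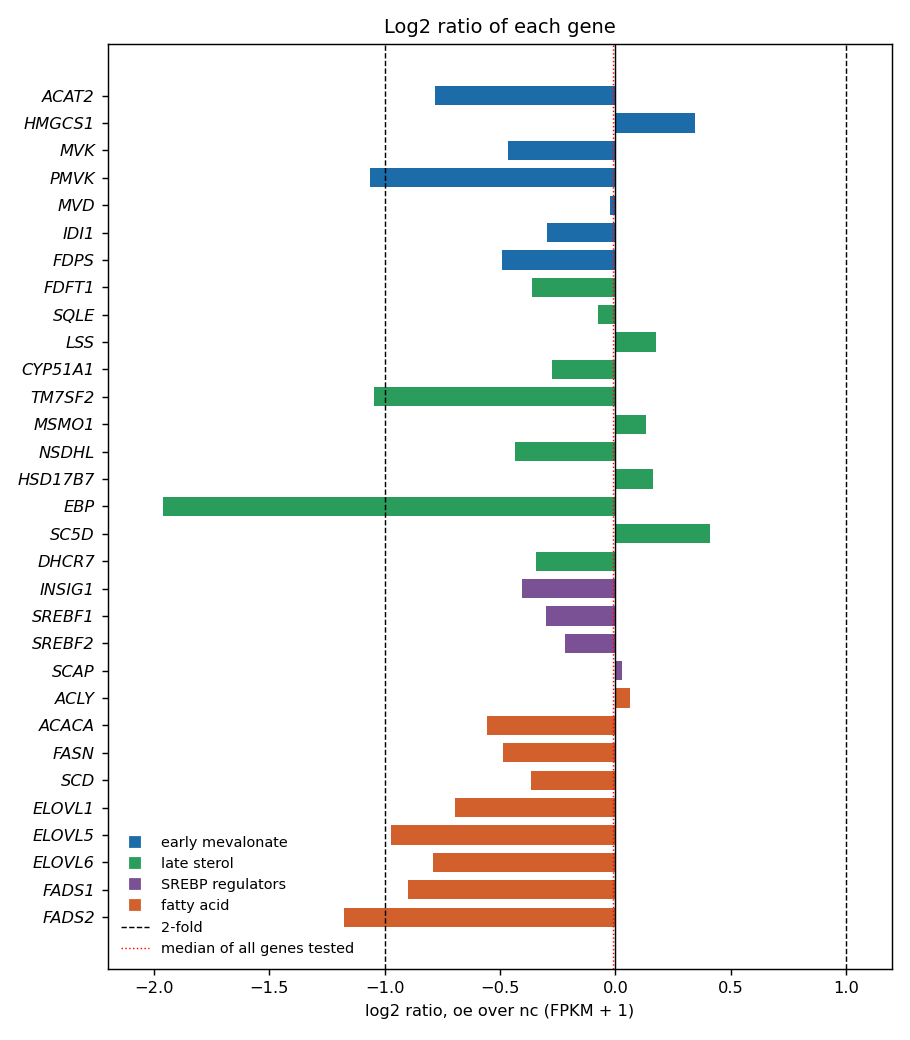
Log2 ratio of each of the 31 genes on the FPKM + 1 scale, coloured by group, with dashed lines at 2-fold and a dotted line at the median of all genes tested (-0.01). EBP reaches -1.96, FADS2, PMVK and TM7SF2 pass the 2-fold line, and no bar on the higher side exceeds 0.41.

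The SREBP regulators stayed within 1.5-fold of their nc levels. SREBF1, which encodes the SREBP isoforms best known for driving fatty acid genes, stood at 20.5 FPKM (nc) and 16.5 FPKM (oe) (log2 ratio -0.30), and its locus overlaps RAI1 (6.68 and 5.25 FPKM) over 1055 bases on the opposite strand. SREBF2, which encodes the isoform best known for driving sterol genes, stood at 22.3 and 19.1 FPKM (-0.22). The ratio of SREBF2 to SREBF1 was 1.09 (nc) and 1.16 (oe), so the relation between the isoform genes was nearly the same. SCAP, the escort protein, stood at 9.86 and 10.09 FPKM (0.03). INSIG1, the retention protein that is itself an SREBP target, stood at 22.9 and 17.02 FPKM (-0.41), and none of the 4 reached 1.5-fold. INSIG2, its paralog outside the list, stood at 2.25 and 5.02 FPKM (0.89), so INSIG1 exceeded INSIG2 10.2 times in the nc library and 3.39 times in the oe library. These are mRNA levels, and SREBP activity is set by cleavage of the protein, which was not measured.

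Since SREBPs act through promoter elements together with NF-Y and SP1, the 250 bases before the transcription starts listed in RefSeq (build GRCh38.p14) were searched on both strands for 4 motifs. Windows were found for 27 of the 31 genes. The sterol regulatory element, written as TCACNCCAC, was found in 1 of the 27 genes (3.70%), SREBF2. It was found in 1.15% of 8705 tested genes with a window and in 0.883% of all 35116 windows. Other spellings of the element were not searched, so genes without this match may hold another form. The NF-Y box, CCAAT, was found in 20 of 27 genes (74.1%), against 42.2% of 8705 tested genes with a window and 32.01% of all windows. The GC box bound by SP1, GGGCGG, was found in 25 of 27 genes (92.6%), against 75.6% of tested genes and 42.6% of all windows. The E-box, CACGTG, was found in 4 of 27 genes (14.8%), against 11.8% of tested genes and 6.34% of all windows. None of the 4 motifs contains another, and CACGTG reads the same on both strands. The 20 genes with an NF-Y box had a median log2 ratio of -0.35 and the 7 without one a median of -0.79, which describes these genes and is no test. The 7 are PMVK, CYP51A1, SREBF1, SCAP, ELOVL6, FADS1 and FADS2. ELOVL6, FADS1 and FADS2 belong to the fatty acid group described below, so motif and group overlap here.

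These stretches show the promoter of a regulator with the sterol element, of a sterol enzyme with repeated NF-Y boxes whose level was slightly higher, and of a desaturase past 2-fold lower whose printed stretch holds none of these letters. Each runs 5′ to 3′ on the strand of the gene, is limited to bases outside annotated UTRs, and has the sterol element, NF-Y box and GC box in capitals. They lie at chr22:41832855-41833078 (plus strand), chr4:165327419-165327622 (plus strand) and chr11:61816286-61816402 (plus strand) in GRCh38.p14.
SREBF2: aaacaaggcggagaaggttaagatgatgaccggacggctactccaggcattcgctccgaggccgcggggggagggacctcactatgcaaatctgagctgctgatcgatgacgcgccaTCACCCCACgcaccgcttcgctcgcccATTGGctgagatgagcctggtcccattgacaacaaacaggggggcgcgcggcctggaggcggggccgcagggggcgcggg
MSMO1: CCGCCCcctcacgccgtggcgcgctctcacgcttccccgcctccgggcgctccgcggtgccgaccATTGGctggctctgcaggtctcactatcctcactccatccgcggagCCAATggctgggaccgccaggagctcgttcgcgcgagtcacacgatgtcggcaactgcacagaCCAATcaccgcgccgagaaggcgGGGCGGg
FADS2: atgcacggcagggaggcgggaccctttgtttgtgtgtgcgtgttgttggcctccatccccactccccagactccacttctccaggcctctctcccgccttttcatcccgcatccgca
In SREBF2 the sterol element TCACCCCAC ends 125 bases before the start, with 1 NF-Y box downstream of it. The MSMO1 stretch holds 3 NF-Y boxes and 2 GC boxes. A match is a run of letters and not a measured binding site, and the lack of one in the FADS2 stretch says nothing of any factor there. The longer FADS2 window that was searched holds 1 GC box outside the printed stretch, so FADS2 is among the 25 genes with one. The printed genes were picked as examples. Of the other genes past 2-fold lower, EBP has 3 NF-Y boxes and 1 GC box in its window. TM7SF2 has 1 NF-Y box and 4 GC boxes, and PMVK has 0 NF-Y boxes and 1 GC box. Unlike the printed stretches, the searched windows were not limited to bases outside UTRs. All 250 bases of the EBP, TM7SF2 and PMVK windows are annotated as UTR.

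Fatty acid genes were the group with the lowest median log2 ratio of the 4, -0.69, with 8 of 9 genes below 0 and 5 of 9 past 1.5-fold lower, against 15.2% of all genes tested. Those 5 were the group's 3 elongases, which lengthen fatty acids, and FADS1 and FADS2, which insert double bonds into polyunsaturated fatty acids, and they lay between -1.18 and -0.69. SCD, the third desaturase of the group, was not among them. ELOVL5, the elongase of polyunsaturated fatty acids, was the most abundant of the 31 genes in both libraries, at 368 FPKM (nc) and 187 FPKM (oe) (log2 ratio -0.97). Of the summed FPKM of the fatty acid genes it made up 57.8% (nc) and 48.8% (oe). Without ELOVL5 that sum was 269 FPKM (nc) and 196 FPKM (oe). ELOVL1, the elongase of very long chains, stood at 27.0 and 16.3 FPKM (-0.69), and ELOVL6, the elongase that makes stearate from palmitate, at 2.32 and 0.919 FPKM (-0.79). ELOVL6 was the least abundant of the 31 genes in both libraries, and its oe level lay under 1 FPKM, where the scale compresses differences.

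FADS2 and FADS1, the neighbouring genes of the delta-6 and delta-5 desaturases of polyunsaturated fatty acids, were both lower. FADS2 (ENSG00000134824.13_3, chromosome 11, 61560452 to 61634826, plus strand) stood at 26.5 FPKM (nc) and 11.2 FPKM (oe), a log2 ratio of -1.18. FADS1 (ENSG00000149485.18_3, chromosome 11, 61567097 to 61596790, minus strand) stood at 13.2 and 6.63 FPKM (-0.90). FADS2 exceeded FADS1 2.002 times in the nc library and 1.68 times in the oe library. The deposited FADS2 locus holds all 29694 bases of the FADS1 locus on the opposite strand, and it also overlaps FEN1, a nuclease of DNA replication, over 4265 bases on the same strand. FEN1 stood at 59.1 and 14.96 FPKM (-1.91), a wider gap than that of FADS2, and the part of shared reads in the FADS2 value was not tested.

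The enzymes that make palmitate and oleate were lower by less than 1.5-fold, or level. ACLY, which releases acetyl-CoA from citrate in the cytosol, stood at 50.2 and 52.4 FPKM (log2 ratio 0.06). ACACA, acetyl-CoA carboxylase and the committed step of the pathway, stood at 30.3 and 20.3 FPKM (-0.56), and FASN, fatty acid synthase, at 56.5 and 40.02 FPKM (-0.49). SCD, the desaturase that makes oleate, stood at 62.8 and 48.5 FPKM (-0.36). The 4 genes had a median log2 ratio of -0.43, against -0.90 for the other 5, a division of the group made with the values known. Since there was 1 library per group, the gap between these sets could not be tested.

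Short transcripts were lower in the oe library across the whole table, which touches some of these genes more than others. Among 11010 tested genes with a length in GENCODE 29, measured on the longest protein-coding transcript, the median log2 ratio went from -0.40 in the decile with the shortest transcripts to 0.24 in the decile with the longest. Spearman's rho across genes was 0.32 over these genes and 0.08 over the 31 members, given as a description, since all genes share the same 2 libraries. PMVK, with a transcript of 1280 bases, lay in the shortest decile, and its log2 ratio less the median of that decile was -0.66. TM7SF2 (1722 bases) and EBP (1775 bases) lay in the next decile, with -0.78 and -1.69 after the same subtraction. Of the fatty acid genes ELOVL1 (1625 bases) also lay in that decile, at -0.43 after subtraction. The other fatty acid genes had longer transcripts. FADS2 (3630 bases) stood at -1.23, FADS1 (4525 bases) at -1.02, ELOVL5 (3081 bases) and ELOVL6 (6454 bases) each at -0.98, and ACACA (9961 bases) and FASN (8565 bases) at -0.80 and -0.73. After subtraction the median of the fatty acid genes was -0.80, that of the early mevalonate genes -0.34, that of the late sterol genes -0.26 and that of the SREBP regulators -0.39. ELOVL1 was then no longer 1.5-fold lower while ACACA and FASN were, which left 4 of the 5 elongases and polyunsaturated desaturases and 2 of the 4 enzymes of palmitate and oleate past that size. Of all 11010 genes, 12.9% were 1.5-fold lower after the same subtraction. The subtraction was chosen after the data were seen.

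**Figure D3:**
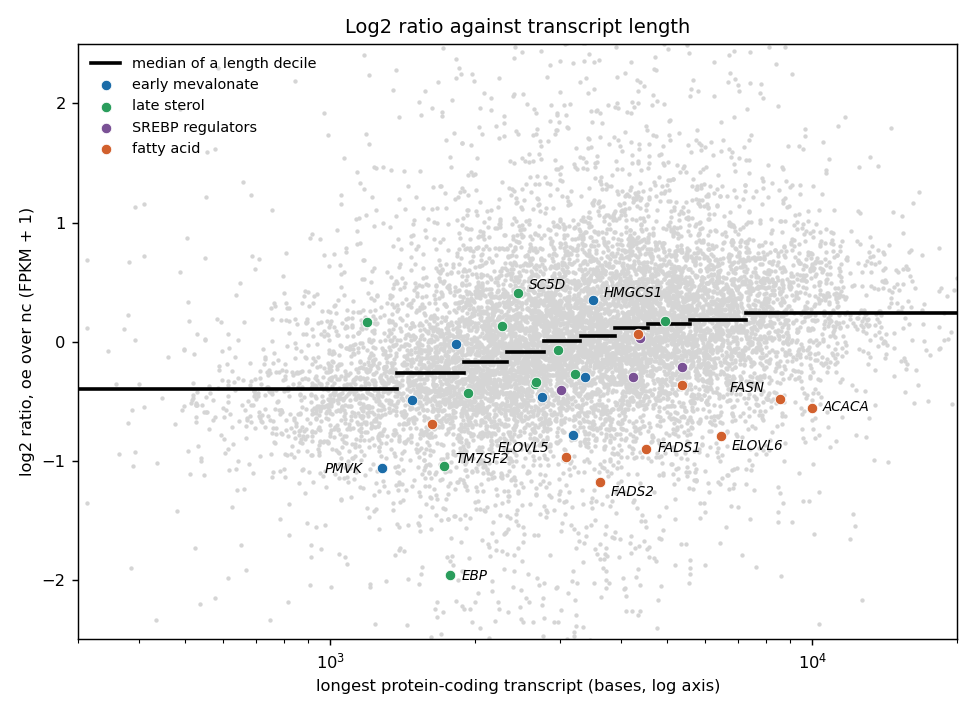
Log2 ratio (FPKM + 1 scale) against the length of the longest protein-coding transcript in bases on a log axis. Grey points are all tested genes within the axis limits, black bars the median of each length decile, and coloured points the 31 genes by group. The bars climb from -0.40 to 0.24, EBP, PMVK and TM7SF2 lie at the short end, and ACACA, FASN and ELOVL6 lie well below the bars at the long end.

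Genes around the pathway were taken from 10 further lists, to be read against the 6.46% of all genes tested that were past 2-fold higher and the 5.83% past 2-fold lower. The machinery that moves, cleaves or degrades SREBP regulators had a median log2 ratio of 0.35 over 21 measured genes, of which 3 were past 2-fold higher and 0 past 2-fold lower. These were RNF145, a ubiquitin ligase known to act on SCAP, at 2.999 and 7.73 FPKM, SEC24D, a cargo adaptor of COPII vesicles, at 5.75 and 13.5 FPKM, and PAQR3, which holds SCAP at the Golgi, at 0.0130 and 1.16 FPKM. PAQR3 entered by its oe level and had to be higher. The proteases MBTPS1, at 6.70 and 7.91 FPKM, and MBTPS2, at 3.44 and 3.33 FPKM, which cut SREBPs in the Golgi, stood near their nc levels. Medians of the further lists are given without the subtraction for transcript length. With it, the median of this machinery was 0.21, the same as that of glycerolipid synthesis.

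Accessory proteins of sterol synthesis had a median log2 ratio of -0.46 over 11 measured genes, LBR among them, with 9 below 0 and 2 above. Sterol uptake, transport and storage genes had a median of -0.07 over 17 genes, with 1 past 2-fold in each direction. TMEM97, a regulator of the cholesterol transporter NPC1 that shares a membrane domain with EBP, stood at 25.1 and 5.73 FPKM (-1.96), close to the values of EBP in both libraries. NCEH1, which hydrolyses stored cholesteryl esters, stood at 3.69 and 63.9 FPKM (3.79). The isoprenoid branch had a median of -0.13 over 15 genes with none past 2-fold, and its most abundant gene, the prelamin protease ZMPSTE24, stood at 27.9 and 31.3 FPKM.

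The supply of acetyl-CoA, citrate and NADPH went both ways, with a median log2 ratio of -0.30 over 12 genes, 8 below 0 and 4 above. MPC2, a subunit of the mitochondrial pyruvate carrier, stood at 252 and 87.9 FPKM (-1.51), and SLC25A1, the citrate carrier that feeds ACLY, at 72.2 and 32.8 FPKM (-1.11). The remaining genes of fatty acid synthesis and elongation had a median of -0.44 over 15 genes, of which 2 were past 2-fold lower and 0 past 2-fold higher. They were HACD2, a dehydratase of the elongation cycle, at 27.8 and 10.4 FPKM (-1.33), and DBI, the acyl-CoA binding protein, at 125.6 and 56.5 FPKM (-1.14). Among further enzymes of the elongation cycle, TECR, its final reductase, stood at 12.6 and 8.80 FPKM (-0.47) and HSD17B12, its ketoreductase, at 3.86 and 3.75 FPKM (-0.04).

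Genes that use fatty acids differed among themselves. The acyl-CoA synthetases had a median log2 ratio of -0.12 over 6 genes, with 2 at least 2-fold higher, ACSL5 at 0.161 and 5.62 FPKM and SLC27A2 at 10.4 and 46.5 FPKM, both of which activate long-chain fatty acids. ACSL5 likewise entered by its oe level and had to be higher. Glycerolipid synthesis had a median of 0.22 over 16 genes with none past 2-fold, and AGPAT1, its most abundant gene and an acyltransferase of phosphatidic acid synthesis, stood at 27.7 and 23.4 FPKM. Fatty acid oxidation had a median of -0.03 over 21 genes, with 1 at least 2-fold lower, ECI2, an isomerase of unsaturated acyl-CoA, at 45.0 and 11.4 FPKM (-1.90). The transcription regulators of carbohydrate and lipid genes had a median of -0.11 over 15 genes with none past 2-fold, and MLX, the partner of the glucose-sensing ChREBP and MondoA factors, was the most abundant at 29.4 and 22.1 FPKM.

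**Figure D4:**
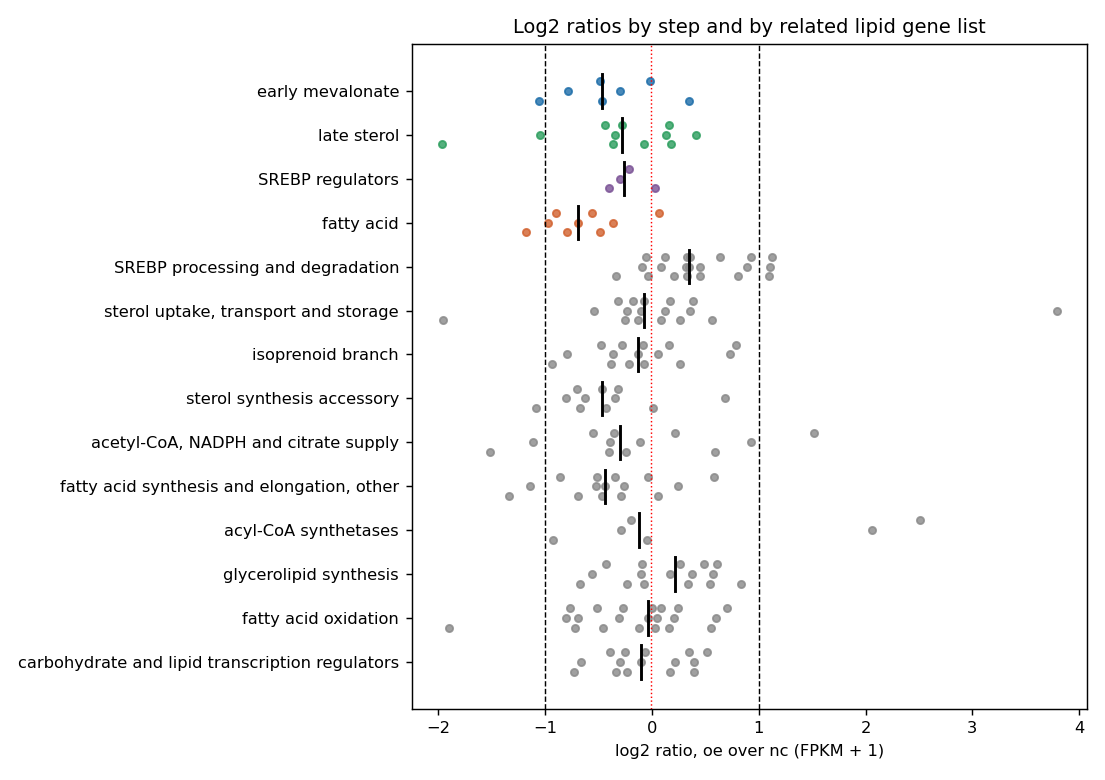
Log2 ratio (FPKM + 1 scale) of each measured gene in the 4 groups of the pathway (colours) and in 10 related lists (grey), with a black bar at the median of each list, dashed lines at 2-fold and a dotted line at the median of all genes tested. The fatty acid group has the lowest bar (-0.69) and the SREBP processing list the highest (0.35), while NCEH1 lies alone at 3.79.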

How the data were processed

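RNA-seq of 2 LNCaP libraries, 1 per group by title, was used. The authors deposited FPKM per gene. The submitters' processing notes name StringTie 2.1.0. Those notes name mm10, but the identifiers are human and 11946 of 12075 carry the suffix of GENCODE annotation mapped to GRCh37, so that build is an inference. No source used here names the aligner. Per the labels' protocols, poly(A) selection, rRNA depletion and stranded library kits were named. The authors' deposited tables of changed genes hold log2 fold changes, linear fold changes (ratios on the FPKM + 1 scale), columns of log2(FPKM + 1), and p-values and q-values that are all 1 and were not used. FPKM sums were 216207 and 198520 in the nc and oe libraries.

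Log2 ratios used a pseudocount of 1 and at least 1 FPKM in the higher library. No test was possible with 1 library per group. All members were named. Of other lists, at most 3 genes past 2-fold, or the most abundant, were named by rule, and some genes this rule covers are not reported here. KLK2, STEAP2, CDH1, INSIG2, LBR, MBTPS1, MBTPS2, TECR, HSD17B12 and the overlapping genes were chosen after their values were seen. Members and lists were chosen with earlier results of these data known. Lengths came from GENCODE 29 and promoter sequences from RefSeq, whose coordinates are of another build than the deposited ones. The size rule was tested on simulated data. Python 3.11.15, pandas 2.3.3 and numpy 2.4.6 were used. Alternatives covered pseudocount, filter, scaling, fold size, mean in place of median, and, chosen after seeing the data, transcript length and the 1.5-fold count under each scaling.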

Additional observations from a re-analysis of the deposited data

How the results depend on the processing

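With the libraries scaled to the same FPKM sum, the median log2 ratio of all genes tested moved from -0.01 to 0.09. The count of members at least 2-fold lower went from 4 to 2 (6.45%, against 4.84% of all genes tested). The medians were -0.24 for all 31 genes, -0.16 for late sterol genes, -0.14 for SREBP regulators and -0.58 for fatty acid genes. The same 75th percentile also gave a count of 2 (background 5.31%), with PMVK at -0.997 and TM7SF2 at -0.99. A size of 1.5-fold gave 9 (background 15.2%). After subtraction of the median of genes of like transcript length, the medians were -0.34 for early mevalonate genes, -0.39 for SREBP regulators and -0.80 for fatty acid genes. Then 10 members (32.3%) were at least 1.5-fold lower, against 12.9% of 11010 genes, with ACACA and FASN gained and ELOVL1 lost. Other medians of the members and their 4 groups moved by less than 0.1, and no median of the members or groups changed sign. EBP ranged from -2.13 to -1.69 and FADS2 from -1.24 to -1.06. MVD, SQLE, SCAP and ACLY, all near 0, changed sign under some settings. No paired analysis was possible because there was 1 library per group. Read depth is unknown, so no interval can be given for any value.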
